A study of Mus musculus with 12 samples.

Results

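Gm15441, a long noncoding RNA gene antisense to Txnip, was 2.60-fold lower in livers of mice with steatohepatitis than in healthy livers and 3.78-fold higher in diseased livers given the BET inhibitor I-BET151 than in diseased livers given vehicle, while Txnip itself and 4 other genes of glucose sensing differed by less. The genes described here were Mlxipl, Pklr, Khk, Arrdc4, Txnip and Gm15441, that is 6 of the 47729 genes in the count files, and all 6 were among the 16823 genes that passed the filter on low counts. They were chosen by name with the measured differences between the groups of these same mice in view, so their differences between the groups are given as a description, with standard errors and no p-value. Whether a gene passed the threshold of the fit over all genes is stated for completeness and supports nothing here.

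Mlxipl encodes ChREBP, a transcription factor that pairs with Mlx and turns on genes when glucose metabolites rise in the liver cell. Among its known targets are Pklr, the liver pyruvate kinase of the last step of glycolysis, and the alpha-arrestins Txnip and Arrdc4, which lower glucose uptake at the cell surface, and Txnip also binds thioredoxin. Khk encodes ketohexokinase, which commits fructose to metabolism, and Gm15441 has been described in mouse liver as an RNA induced through the fatty acid receptor PPAR-alpha that lies across the start of Txnip.

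RNA-seq was done on whole liver of 12 male C57BL/6 mice, 4 in each of 3 groups, to ask which transcripts change with disease and with the drug. The healthy group (mouse model WT, labelled vehicle) served as the undiseased reference. The vehicle group was STAM mice, a model made by streptozotocin at day 2 of life, which destroys insulin-producing islet cells, and a high-fat diet from week 4. The I-BET151 group was STAM mice dosed by mouth with 10 mg/kg of I-BET151, which blocks the acetyl-lysine reader proteins of the BET family, each day from week 6, and livers were taken at week 9. Per the study's methods the vehicle was methylcellulose whereas the drug was suspended in hydroxypropyl methylcellulose with Tween, so drug and carrier cannot be told apart, and neither streptozotocin nor the diet was given alone. Each sample was a separate mouse. Because whole liver was measured, fewer cells of a type and less RNA per cell cannot be told apart.

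Between 34711229 and 53365596 reads were counted per mouse. Hepatocyte markers summed to 109831 to 133873 CPM (counts scaled to the library size) in healthy, 58081 to 78264 CPM in vehicle and 23087 to 100588 CPM in I-BET151 livers (lowest in mouse 3), so the livers expressed the defining genes of the labelled tissue. All 7 hepatocyte markers had counts, and 1 of 3 adipocyte and 1 of 2 kidney markers were at 0 in every mouse. I-BET151 mouse 3 stood apart. Mitochondrial genes took 2.71% of its counts (4.51% to 7.30% elsewhere), its 10 highest genes took 7.95% of counts, against 13.5% to 18.0%, and all 7 of a set of transcripts chosen after the values were seen, mostly RNAs that stay in the nucleus, were highest in that mouse (5439 CPM in sum, against 1041 to 2405 CPM). Results are given with and without this mouse where it moved them, and the part of these features in the results was not tested.

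Txnip (ENSMUSG00000038393) lies on the plus strand at chr3:96557957-96561883 and Gm15441 (ENSMUSG00000074398) on the minus strand at chr3:96555765-96566801 (GRCm38, GENCODE M21), so Gm15441 spans the whole of Txnip. Their exons share 606 bases, which is 36.2% of the exon bases of Gm15441 and 19.4% of those of Txnip. The longer Gm15441 transcript crosses the Txnip start with an exon that covers the first 441 bases of Txnip and runs on upstream through the whole Txnip promoter window, and its next shared exon of 165 bases lies wholly in the Txnip coding sequence. The sequence of that exon is shown because the whole of it could pair with the protein-coding part of the Txnip mRNA. Of the 441 bases shared at the Txnip start, 162 also lie in Txnip coding sequence. It lies at chr3:96559678-96559842 and is written on the Gm15441 strand from the GENCODE transcript, all in capitals because every base is the complement of Txnip coding sequence.
Gm15441 exon: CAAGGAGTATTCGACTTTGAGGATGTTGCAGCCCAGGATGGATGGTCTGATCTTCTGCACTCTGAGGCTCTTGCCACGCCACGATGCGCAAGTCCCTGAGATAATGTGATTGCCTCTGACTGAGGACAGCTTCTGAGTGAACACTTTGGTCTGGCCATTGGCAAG

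**Figure D1:**
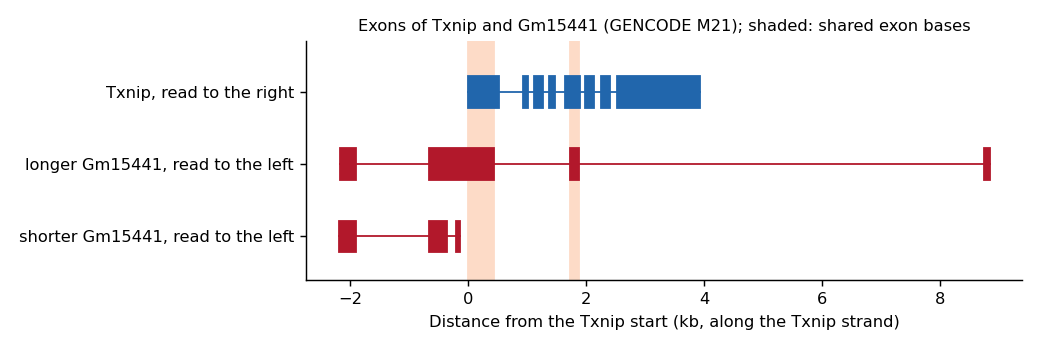
Exons of Txnip and of the Gm15441 transcripts on a scale of kb from the Txnip start, with boxes for exons, lines for introns and shading for the exon bases the genes share. The longer Gm15441 transcript shares 441 and 165 exon bases with Txnip, and the shorter lies wholly upstream of Txnip.

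ChREBP and Mlx bind a carbohydrate response element made of a pair of E-box-like stretches, so the promoters are shown at the stretch that holds such letters. Of the 6 genes, 5 had promoter windows from RefSeq (GRCm38.p6, 300 bases each, 7 windows in all), and Gm15441 had none. Capitals mark a match to the carbohydrate response element, read as CACGNG and CNCGNG with 5 bases between them, in Txnip (chr3:96557832-96557928, plus strand) and Pklr (chr3:89136413-89136509, plus strand), and a match to the E-box CACGTG in Mlxipl (chr5:135089752-135089837, plus strand), Khk (chr5:30921476-30921505, plus strand) and Arrdc4 (chr7:68749386-68749471, minus strand).
Txnip: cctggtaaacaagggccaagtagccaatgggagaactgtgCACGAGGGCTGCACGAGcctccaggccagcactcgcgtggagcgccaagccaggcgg
Pklr: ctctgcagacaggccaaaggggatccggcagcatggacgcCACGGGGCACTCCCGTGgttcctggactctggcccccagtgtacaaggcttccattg
Mlxipl: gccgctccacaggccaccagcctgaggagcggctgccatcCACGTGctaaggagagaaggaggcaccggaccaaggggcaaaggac
Khk: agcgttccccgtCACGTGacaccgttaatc
Arrdc4: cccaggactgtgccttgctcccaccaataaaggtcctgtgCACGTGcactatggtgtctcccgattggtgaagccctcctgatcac

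Both strands were searched. The carbohydrate response element was in 0.365% of the 32851 RefSeq promoter windows of this length and the E-box in 7.15%. The PPAR-alpha direct repeat, read as a pair of AGGNCA with 1 base between them, was in 0.381% of all windows. It was in none of the 7 windows searched here, and at that share nothing is read from its absence. Gm15441 had no window to search. The Txnip match ended 68 bases upstream of the annotated start, inside the Gm15441 exon. The Khk match, at chr5:30921488-30921493, ended 65 bases upstream of the RefSeq start. It lay downstream of the GENCODE start at 30921431, so inside the gene in that annotation. A match is a description of the letters and no evidence of binding in these livers.

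Levels of the 6 genes were compared per kb of exon. In healthy livers Khk was highest, at 120 ± 9.19 CPM per kb (SD, n = 4). Txnip followed at 68.9 ± 20.8 CPM per kb and Mlxipl at 65.2 ± 16.2 CPM per kb, and these neighbors differed by less than their spread. Pklr was at 23.0 ± 3.88, Gm15441 at 7.51 ± 3.30 and Arrdc4 at 3.90 ± 0.87 CPM per kb. In vehicle livers Gm15441 was lowest, at 2.88 ± 1.21 CPM per kb, below but within the spread of Arrdc4 at 3.29 ± 0.49. That rank depends on the length used. Per kb of the exon bases not shared with Txnip, Gm15441 stood at 4.52 ± 1.90, above Arrdc4. In I-BET151 livers Gm15441 stood at 10.9 ± 3.59 CPM per kb, above Arrdc4 at 3.33 ± 1.02 and below Pklr at 33.1 ± 14.8.

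Mlxipl (ENSMUSG00000005373, chr5:135089890-135138382), the ChREBP gene, had much the same level in healthy and vehicle livers. Healthy mice 1 to 4 had 396, 461, 249 and 339 CPM, and vehicle mice 1 to 4 had 355, 408, 286 and 279 CPM. The I-BET151 mice had 391, 237, 1258 and 255 CPM, so mouse 3 alone lay far above every other mouse and the remaining 3 overlapped with both other groups. The log2 fold change was -0.12 ± 0.44 (SE) with disease (vehicle against healthy) and 0.69 ± 0.44 with the drug (I-BET151 against vehicle). Without I-BET151 mouse 3 the latter was -0.16 ± 0.23, so its sign rested on that mouse, in which the nuclear transcripts were also highest.

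The partners and relatives of ChREBP were measured alongside. The 5 listed genes were Mlx, the obligate partner, Mlxip, which encodes the related MondoA, and Max, Mxd4 and Mnt of the same network. All were tested and none passed in any of the 3 comparisons, where 7.1%, 0.351% and 15.1% of all genes tested passed. None passed without I-BET151 mouse 3 either, where the shares were 22.3%, 2.38% and 20.4%. With 5 genes nothing is read from these counts. Mlx was at 32.6 ± 3.43 CPM in healthy and 27.8 ± 2.73 CPM in vehicle livers.

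Pklr (ENSMUSG00000041237, chr3:89136142-89146784) was higher in every vehicle liver than in any healthy liver. Healthy mice had 63.0, 91.8, 75.1 and 67.9 CPM and vehicle mice 122, 156, 111 and 96.1 CPM, and the groups did not overlap. I-BET151 mice had 79.8, 104, 175 and 69.5 CPM, overlapping with both. The log2 fold change for vehicle against healthy was 0.70 ± 0.26, or 1.63-fold. For I-BET151 against vehicle it was -0.18 ± 0.26, and -0.52 ± 0.18 without I-BET151 mouse 3, which had the highest Pklr level of all 12 mice.

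Khk (ENSMUSG00000029162, chr5:30921431-30931248) was the steadiest of the 6 genes, with a spread of 0.24 on the log2 CPM scale over all mice. Healthy mice had 214, 213, 198 and 238 CPM, vehicle mice 268, 316, 246 and 227 CPM, and I-BET151 mice 183, 265, 272 and 175 CPM. Of the vehicle mice, 3 lay above every healthy mouse and 1 lay within the healthy range. The log2 fold change was 0.29 ± 0.18 with disease and -0.24 ± 0.18 with the drug. Centered on their own means, Pklr and Khk had the closest profiles of any pair among the 6 genes, at a root mean squared distance of 0.30 in log2 CPM over 12 mice. That was more than the spread of Khk about its own mean (0.24), so it does not show that they varied together. Khk and Arrdc4 came next at 0.31.

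**Figure D2:**
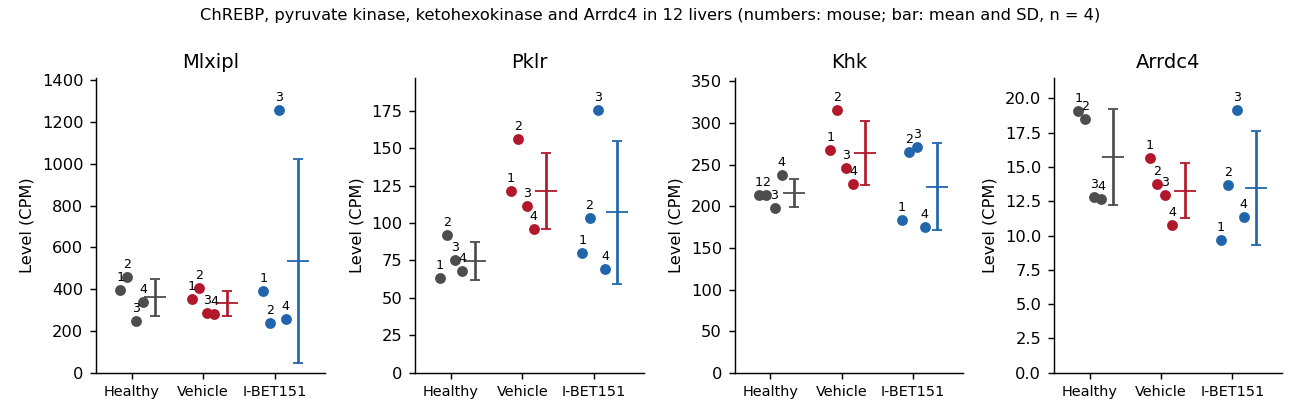
Levels in CPM of Mlxipl, Pklr, Khk and Arrdc4 in each of the 12 livers by group, with mouse numbers beside the points and the mean and SD (n = 4) as a bar. I-BET151 mouse 3 is the highest point for Mlxipl, Pklr and Arrdc4, and only Pklr shows vehicle livers all above healthy livers.

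Arrdc4 (ENSMUSG00000042659, chr7:68736995-68749241), the closest listed relative of Txnip, was low throughout. Healthy mice had 19.1, 18.5, 12.8 and 12.7 CPM, vehicle mice 15.6, 13.7, 12.9 and 10.8 CPM, and I-BET151 mice 9.67, 13.7, 19.1 and 11.3 CPM. The 3 groups overlapped, with log2 fold changes of -0.25 ± 0.21 with disease and 0.021 ± 0.21 with the drug. Without I-BET151 mouse 3, which had the highest Arrdc4 level of its group, the latter was -0.19 ± 0.18. Of the other alpha-arrestin genes, Arrdc1, Arrdc2 and Arrdc3 were tested and none passed in any comparison. Of all genes tested, 7.1%, 0.351% and 15.1% passed in the 3 comparisons. Without I-BET151 mouse 3 Arrdc2 passed as lower in I-BET151 than in healthy livers (adjusted p = 0.0488, edgeR's quasi-likelihood test), where 20.4% of all genes passed. With so few genes nothing is read from these counts. Arrdc5, with 0 to 7 counts per mouse, was not tested.

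Txnip varied more within groups than between them. Healthy mice had 247, 271, 220 and 123 CPM, vehicle mice 325, 193, 227 and 240 CPM, and I-BET151 mice 157, 254, 398 and 262 CPM. The group means were 215 ± 64.8, 246 ± 56.0 and 268 ± 99.0 CPM, and the groups overlapped in all 3 comparisons. The log2 fold change was 0.20 ± 0.29 with disease and 0.12 ± 0.29 with the drug, and the latter was -0.13 ± 0.26 without I-BET151 mouse 3.

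Gm15441 had the largest differences of the 6 genes in both comparisons with vehicle livers. Healthy mice had 9.11, 15.0, 19.2 and 7.07 CPM, vehicle mice 4.57, 2.13, 6.89 and 5.75 CPM, and I-BET151 mice 13.4, 22.9, 24.03 and 12.8 CPM. Every vehicle liver lay below every healthy liver and every I-BET151 liver, whereas healthy and I-BET151 livers overlapped. The raw counts behind these values were 246 to 660 in healthy, 112 to 356 in vehicle and 557 to 1340 in I-BET151 mice, so counting error was small beside the spread between mice. The group means were 12.6 ± 5.53, 4.83 ± 2.03 and 18.3 ± 6.01 CPM. The hepatocyte marker sums given above were also lower in every vehicle liver than in any healthy liver, and their part in the difference was not tested.

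The log2 fold change of Gm15441 was -1.38 ± 0.37 for vehicle against healthy, 1.92 ± 0.38 for I-BET151 against vehicle and 0.54 ± 0.36 for I-BET151 against healthy. Without I-BET151 mouse 3 these were -1.40 ± 0.37, 1.76 ± 0.39 and 0.36 ± 0.38. The first pair of comparisons shares the 4 vehicle mice, so its opposite signs are not independent of each other. Mice of different groups that shared a sequencing lane, 1 of each group at a time, gave log2 ratios of 1.15, 1.55 and 1.80 for I-BET151 over vehicle in lanes 2, 6 and 7, and -0.66 for vehicle over healthy in lane 2, the only lane with both. With lane as a factor in the fit the value for vehicle against healthy was -0.48, and healthy mice 2 and 3 were the only ones run in lane 8.

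**Figure D3:**
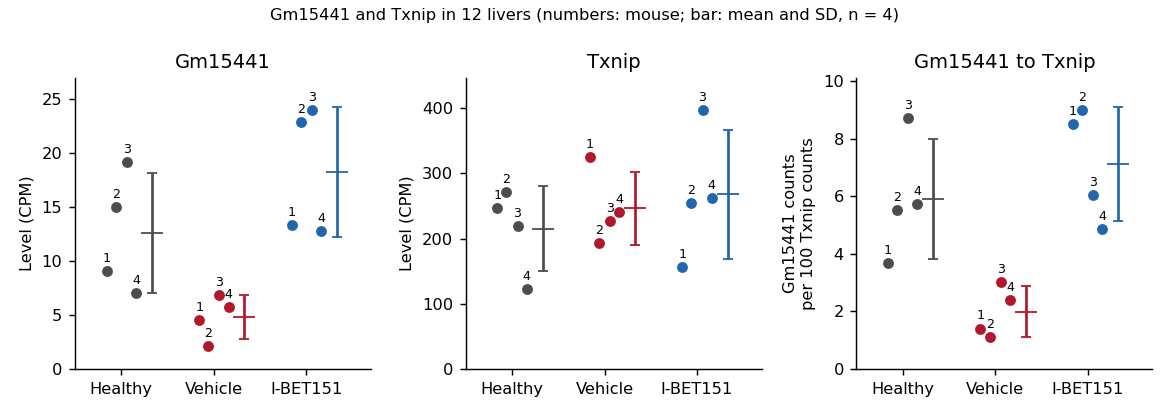
Levels in CPM of Gm15441 and Txnip, and Gm15441 counts per 100 Txnip counts, in each of the 12 livers by group, with mouse numbers beside the points and the mean and SD (n = 4) as a bar. Gm15441 and its ratio to Txnip are lower in all 4 vehicle livers than in any other liver, and Txnip overlaps across the groups.

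The ratio of the antisense RNA to Txnip within a mouse does not depend on library size. Healthy mice had 3.68, 5.54, 8.73 and 5.74 Gm15441 counts per 100 Txnip counts, vehicle mice 1.40, 1.10, 3.03 and 2.40, and I-BET151 mice 8.52, 9.02, 6.04 and 4.88. The vehicle mice again lay below all others, and in I-BET151 mouse 3 the ratio was within the range of its group. The mean log2 ratio was 1.63 lower in vehicle than in healthy mice, 1.91 higher in I-BET151 than in vehicle mice and 0.29 higher in I-BET151 than in healthy mice. Over the 12 mice the centered profiles of Gm15441 and Txnip lay 0.96 apart in log2 CPM, about as far as Gm15441 lay from its own mean (0.99).

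Because the genes share exon bases on opposite strands, the handling of strand bears on these values. The library kit kept strand, but the strand setting of the counting is not given in the sources used here. Of 427 genes whose exons are wholly covered by exons on the other strand, 412 (96.5%) had no count in any mouse, against 42.2% of 39438 genes with no such overlap. Among protein-coding genes this was 29 of 35, against 3612 of 16864. The other 15 wholly covered genes had counts, and 2 of them, the pseudogenes Gm7808 (323 to 860 counts) and Gm26587 (33 to 174 counts), had at least 10 in every mouse. Counting without strand that sets aside reads lying in both of a pair of genes would leave such genes without counts, but whether it was used was not settled by these values. If it was, Gm15441 reads came from its 1070 unshared exon bases, all outside the Txnip gene body. Per kb of unshared exon, Gm15441 stood at 11.8 ± 5.17, 4.52 ± 1.90 and 17.1 ± 5.62 CPM per kb and Txnip at 85.5 ± 25.8, 97.9 ± 22.3 and 106 ± 39.3 CPM per kb in healthy, vehicle and I-BET151 livers.

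Across the 6 genes, vehicle livers passed the adjusted p threshold of 0.05 against healthy livers for 1 gene, Gm15441, which was lower (background: 7.1% of the 16823 genes tested passed, 1.38% as lower). Pklr lay wholly above and Gm15441 wholly below, where 26.4% of all genes had groups that did not overlap. I-BET151 livers passed the threshold of 0.1 against vehicle livers for 1 gene, again Gm15441, which was higher (background 0.351%, 0.0951% as higher), and only its groups did not overlap (background 5.04%). Against healthy livers, I-BET151 livers passed at 0.05 for none of the 6 genes (background 15.1%) and no groups were apart (background 19.8%). Without I-BET151 mouse 3 the genes past the threshold were Gm15441 and Pklr, Gm15441, and none, where the background was 22.3%, 2.38% and 20.4%. Since the genes were chosen with these differences known, nothing is read from these counts. The median log2 fold change over the 6 genes was 0.037, 0.070 and 0.42 in the 3 comparisons, against 0.0089, 0.024 and 0.061 over all genes tested. Without I-BET151 mouse 3 the median over the 6 genes was 0.014, -0.18 and -0.011, so the values of the comparisons with I-BET151 livers rested on that mouse, and over all genes it was -0.013, 0.0042 and -0.0093.

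**Figure D4:**
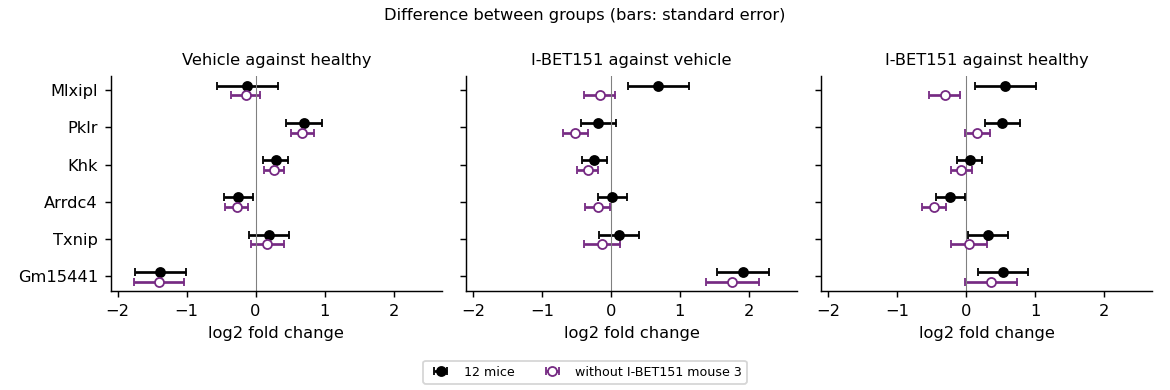
Log2 fold changes with standard errors for the 6 genes in 3 comparisons, from all 12 mice (filled) and without I-BET151 mouse 3 (open). Gm15441 has the largest values in both comparisons with vehicle livers, and Mlxipl turns from 0.69 to -0.16 for I-BET151 against vehicle when the mouse is left out.

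As a description only, the sign of the Gm15441 differences from vehicle livers held in every alternative tried and the passing of the threshold did not. It was lower in vehicle than in healthy livers in all 20 alternative analyses and past the threshold in 11 of them. It was higher in I-BET151 than in vehicle livers in all 20 and past the threshold in 12. Leaving out each mouse in turn kept the calls in 6 and 8 of 12 fits. The first was lost without healthy mouse 2 or 3 or any one of the 4 vehicle mice, and the second without vehicle mouse 1, 2 or 4 or I-BET151 mouse 1.

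Of 16 genes that overlap or start within 100 kb of Txnip, 9 were tested in each of the 3 comparisons. None of the 9 passed with 12 mice, where 7.1%, 0.351% and 15.1% of all genes tested passed. With so few genes nothing is read from this count. For I-BET151 against vehicle the median log2 fold change of the 9 genes was 0.13. Rbm8a, a core part of the exon junction complex, was at 32.8 ± 3.27 CPM in healthy and 26.8 ± 1.26 CPM in vehicle livers. It passed as lower for vehicle against healthy only without I-BET151 mouse 3 (adjusted p = 0.0294, edgeR's quasi-likelihood test), where 22.3% of all genes passed. The 7 genes not tested had between 0 and 15 counts per mouse.

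Other genes known to respond to ChREBP were mostly lipogenic. With disease 1 of them passed (background 7.1%), and with the drug 1 passed (background 0.351%). For vehicle against healthy, 1 of 17 tested passed, Scd1, the desaturase that makes monounsaturated fatty acids, which fell from 1985 ± 239 to 145 ± 88.5 CPM (log2 fold change -3.78 ± 0.58, adjusted p = 0.002, edgeR's quasi-likelihood test). The median over the list was -0.030. Thrsp rose from 28.9 ± 6.92 to 97.9 ± 39.9 CPM with no overlap and did not pass with 12 mice. It was the only gene of the list with vehicle livers wholly above healthy livers, and 3 lay wholly below. Of all genes tested, 26.4% had groups that did not overlap in either direction. For I-BET151 against vehicle, 1 of 17 passed, Elovl6, which lengthens fatty acids, which fell by 1.07 on the log2 scale (SE 0.22, adjusted p = 0.0768, edgeR), and the list median was -0.40. Acly and Acaca, the first enzymes of fatty acid synthesis, were at 133 and 80.1 CPM in vehicle and 87.6 and 57.4 CPM in I-BET151 livers with no overlap, and did not pass with 12 mice. Of all genes tested, 5.04% had groups that did not overlap in this comparison.

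Against healthy livers, I-BET151 livers passed for 5 of these 17 genes (background 15.1%), all lower: Acly, Elovl6, Scd1, Me1 and Mttp. Scd1 fell by 5.22 on the log2 scale (SE 0.62, adjusted p = 0.000302, edgeR's quasi-likelihood test), to 53.3 CPM. Without I-BET151 mouse 3, 4, 5 and 9 of the 17 passed in the 3 comparisons, where 22.3%, 2.38% and 20.4% of all genes passed. The first count was near its background. The list was chosen with earlier results of these data known, so nothing is read from any of these counts. Several of these genes also respond to the insulin-driven factor SREBP-1c, so the list is not particular to ChREBP.

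Among 14 genes of glucose entry and glycolysis, 2 passed for vehicle against healthy (background 7.1%). Pkm, the pyruvate kinase of most tissues other than liver, rose from 16.9 to 34.9 CPM (log2 fold change 1.05 ± 0.27, adjusted p = 0.0343, edgeR), while Ldha, lactate dehydrogenase, fell from 1154 to 555 CPM (-1.05 ± 0.30, adjusted p = 0.0492, edgeR). None of the 14 passed for I-BET151 against vehicle (background 0.351%), and 2 did without I-BET151 mouse 3 (background 2.38%). Pkm alone passed for I-BET151 against healthy (background 15.1%). Kupffer cell and macrophage markers, from cells that express Pkm, summed to 86.2 to 131 CPM in healthy, 155 to 293 CPM in vehicle and 139 to 263 CPM in I-BET151 livers, and their part in the Pkm difference was not tested.

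Of 6 genes of fructose and polyol metabolism beside Khk, only Akr1b3, the aldose reductase that turns glucose into sorbitol, passed for vehicle against healthy, rising from 6.02 to 9.82 CPM (log2 fold change 0.70 ± 0.17, adjusted p = 0.0231, edgeR). It stayed higher in I-BET151 than in healthy livers (0.69 ± 0.17, adjusted p = 0.0154, edgeR). None passed for I-BET151 against vehicle. The background was 7.1% with disease, 0.351% with the drug and 15.1% for I-BET151 against healthy. Tkfc, which acts on the product of Khk and aldolase, was at 407 CPM in healthy and 581 CPM in vehicle livers with no overlap, and passed only without I-BET151 mouse 3 (adjusted p = 0.0273, edgeR).

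Of 14 PPAR-alpha targets, mostly enzymes of fatty acid breakdown, 3 passed for vehicle against healthy, all lower: Acot1, a fatty acyl-CoA thioesterase (-1.52 ± 0.26, adjusted p = 0.00355), Ehhadh, the peroxisomal bifunctional enzyme (-2.0 ± 0.37, adjusted p = 0.00664), and Fabp1, the liver fatty acid-binding protein (-1.50 ± 0.33, adjusted p = 0.0159), all by edgeR's quasi-likelihood test. Of all genes tested, 7.1% passed, 1.38% as lower. In 9 of the 14 every vehicle liver lay below every healthy liver, and in 0 every vehicle liver lay above. Of all genes tested, 26.4% had groups that did not overlap in either direction. The list median was -0.58. Hepatocyte marker sums, given above, were also lower in every vehicle liver than in any healthy liver, and their part in these differences was not tested. Of the 14, 9 passed without I-BET151 mouse 3, where 22.3% of all genes did. For I-BET151 against vehicle none of the 14 passed (background 0.351%), and the list median was 0.11. Without I-BET151 mouse 3, 1 passed, Ehhadh (background 2.38%). Acot1 alone had groups apart (background 5.04%), at 60.4 CPM in vehicle and 98.0 CPM in I-BET151 livers (0.70 ± 0.25, adjusted p = 0.415, edgeR). Gm15441, with 1.92 in the same comparison, was not a member of this list, and the difference between the gene and the list was not tested.

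**Figure D5:**
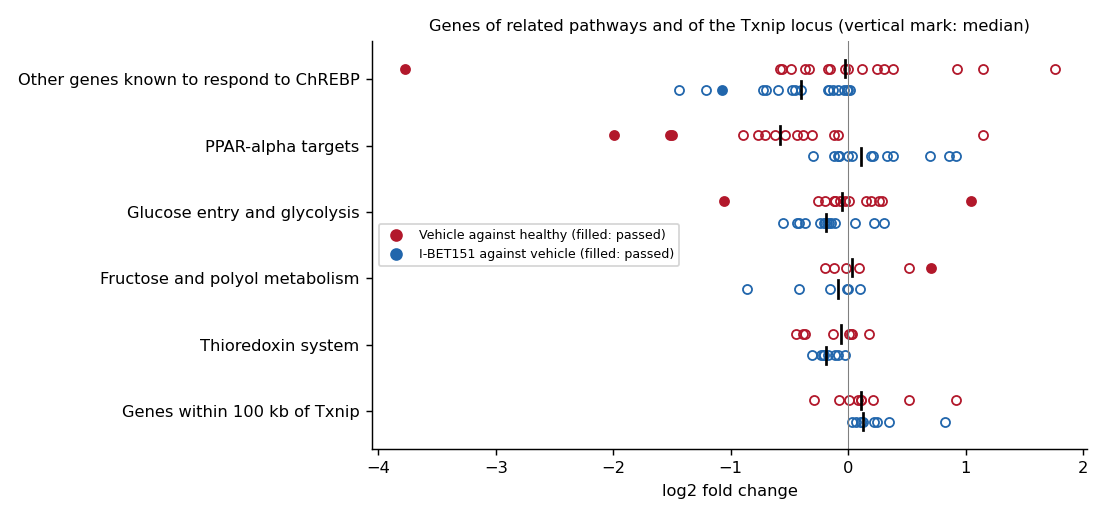
Log2 fold changes of the tested genes of 6 lists for vehicle against healthy (red) and I-BET151 against vehicle (blue), filled where the gene passed its threshold, with the list median as a vertical mark. For PPAR-alpha targets the median is -0.58 with disease and 0.11 with drug. None of the 9 tested genes near Txnip passed (background 7.1% with disease and 0.351% with drug).

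The thioredoxin system and the inflammasome were examined because Txnip binds thioredoxin and has been linked to NLRP3. For vehicle against healthy none of 8 thioredoxin system genes passed (3 without I-BET151 mouse 3, background 22.3%). For I-BET151 against healthy, the thioredoxin reductases Txnrd2 and Txnrd3 passed as lower (-0.58 ± 0.11 and -0.68 ± 0.15, adjusted p = 0.00541 and 0.00983, edgeR), and Txn1, the thioredoxin that Txnip holds, was at 86.5, 86.8 and 85.1 CPM in the 3 groups. Of 6 inflammasome genes, Nlrp3 alone passed, rising from 1.03 to 2.36 CPM in vehicle livers (1.18 ± 0.27, adjusted p = 0.0202, edgeR) beside the higher macrophage marker sums given above. No gene of either list passed for I-BET151 against vehicle. With 12 mice the background was 7.1% with disease, 0.351% with the drug and 15.1% for I-BET151 against healthy.

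Of 8 genes of the insulin and fasting response, none passed for vehicle against healthy (3 without I-BET151 mouse 3, background 22.3%). Ppargc1a, the coactivator of fasting metabolism that also works with PPAR-alpha, fell from 26.7 to 9.39 CPM with I-BET151 against vehicle (-1.51 ± 0.27, adjusted p = 0.0485, edgeR's quasi-likelihood test), and no other gene of the list passed in that comparison. Against healthy livers Ppargc1a and Pck1, the gluconeogenic carboxykinase, passed as lower in I-BET151 livers. The background was 0.351% against vehicle and 15.1% against healthy livers.

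Over all these lists, 94 genes were named beside the 6, and 86 were tested. In the order disease, drug, drug against healthy, 8 (9.30%), 2 (2.33%) and 15 (17.4%) of the 86 passed, beside 7.1%, 0.351% and 15.1% of all genes tested. The lists were chosen with earlier results of these data known, so their counts and adjusted p-values are given as a description.

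By the root mean squared distance between centered log2 CPM profiles over 12 mice, the genes most like Gm15441 were Gm12217 (0.62), Cyp3a57 (0.63), E2f8 (0.64), Gm5644 (0.64) and 9430085M18Rik (0.65). E2f8, a repressor of the cell cycle, was the only one of the 5 above 2 CPM, at 11.4 ± 5.37, 4.27 ± 1.11 and 12.5 ± 4.28 CPM in healthy, vehicle and I-BET151 livers. The genes most like Txnip were Fgfbp3 (0.18), Gm15510 (0.23), Rwdd2a (0.23), Gm26798 (0.23) and Gm16892 (0.24), all near 1 CPM. At that level the prior count weighs more than it does for Txnip, by an amount that was not measured. No other of the 6 genes came within these distances.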

How the data were processed

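Whole-liver RNA of 12 mice, 4 per group, was sequenced from a stranded, poly(A)-selected library kit. The authors aligned reads to mm10 with STAR 2.5.1b and deposited raw counts per gene, unnormalized, 1 file per mouse. The submitters' processing notes and the methods name HTSeq whereas the files name featureCounts, and the strand setting and annotation release are not given in the sources used here. The study left out 1 unnamed I-BET151 sample; all 4 were kept here.

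Of 47729 gene identifiers, 47310 were matched to GENCODE M21. Counts were analyzed in R 4.3.3 with edgeR 4.0.16 in a single fit of 3 groups (TMM, filterByExpr with a minimum count of 10, quasi-likelihood test, Benjamini-Hochberg over 16823 genes), at an adjusted p of at most 0.05, or 0.1 for I-BET151 against vehicle. Standard errors were taken as the log2 fold change divided by the square root of F. CPM use TMM-scaled totals, and log2 CPM a prior count of 2. Python 3.11.15, NumPy 2.4.6, pandas 2.3.3 and Matplotlib 3.10.9 made tables and plots. The fit was tested on simulated data. Alternatives were DESeq2 1.42.0, RLE scaling, no filter, only the groups compared, a replicate block, lane as a factor and each mouse left out, and, chosen after seeing the data, total counts in place of TMM and DESeq2 without I-BET151 mouse 3.

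The 6 genes and all lists were chosen with earlier results of these data known. The text names the 6 genes, list genes that passed a threshold or whose role was needed, genes within 100 kb of Txnip and the 5 closest profiles to Gm15441 and to Txnip. Acly, Acaca, Thrsp, Tkfc, Rbm8a and Arrdc2 were named after their values were seen. No column of the files was left unused.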

Additional observations from a re-analysis of the deposited data

Results flagged for a closer look

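Mlxipl stood at 1258 CPM in I-BET151 mouse 3, against 237 to 391 CPM in the other 3 mice of its group, a gap that passed Dixon's 95% critical value. Of 21 groups of 4 values examined in this way for the 6 genes and the ratio of Gm15441 to Txnip, this was the only 1 that passed, and chance passes about 1 in 20. The mouse also had the highest nuclear transcripts and the lowest mitochondrial share, and their part in the Mlxipl value was not tested.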

How the results depend on the processing

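Member fold changes kept their signs under DESeq2, RLE scaling and the 2-group fits, and, save Arrdc4 at -0.014 for I-BET151 against vehicle, without the filter. Of 360 member values recomputed, 347 moved by less than their spread between mice and 13 moved further, with the cause not tested. Genes called for vehicle against healthy (1195) numbered 1892 in DESeq2, 3879 with only the 2 groups, 37 with lane as a factor and 4378 in DESeq2 without I-BET151 mouse 3. For I-BET151 against vehicle (59) they numbered 268 in DESeq2, 101 without the filter, 8 with only the 2 groups, 0 with lane as a factor (1485 at an unadjusted p under 0.05), 6 with total counts and 1288 in DESeq2 without mouse 3. For I-BET151 against healthy (2546) they numbered 1262 with only the 2 groups, 85 with lane and 4105 in DESeq2 without mouse 3. List genes called (8, 2 and 15) numbered 16, 4 and 25 in DESeq2, 27, 0 and 8 with only the 2 groups, 0, 0 and 0 with lane, and 28, 15 and 33 in DESeq2 without mouse 3, and 0 for I-BET151 against vehicle with total counts.

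With lane as a factor Mlxipl moved to -0.98 with disease and -0.33 for I-BET151 against healthy, and Gm15441 to -0.48 and 1.13. In DESeq2 without I-BET151 mouse 3 Mlxipl stood at -0.16 against vehicle and -0.30 against healthy. Total counts shifted the median of all genes to 0.28, 0.13 and 0.46 in the 3 comparisons, raised the share of calls that were higher from 80.6% to 95.4% with disease and from 65.3% to 92.9% for I-BET151 against healthy, and gave Pklr 0.98 and 1.04, Khk 0.56 and 0.48 and, for I-BET151 against healthy, Arrdc4 0.22. Arrdc4, at -0.23 with TMM, thus changed sign but stayed below the median shift. Signs also changed for Mlxipl (0.14) and Arrdc4 (0.012) with disease and Pklr (0.057) for I-BET151 against vehicle. These moved by less than their spread between mice and also stayed below the median shift.

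Leaving out each mouse in turn gave 546 to 3779, 13 to 403 and 1292 to 3731 genes called, and 3 to 25, 0 to 9 and 8 to 27 list genes. The most came without I-BET151 mouse 3, save 3731 without I-BET151 mouse 2, and the fewest without healthy mouse 3 or vehicle mouse 3, vehicle mouse 4 or I-BET151 mouse 1, and healthy mouse 3. For list genes the fewest came without healthy mouse 2, vehicle mouse 4 or I-BET151 mouse 1, and healthy mouse 2 or 3. Mlxipl for I-BET151 against vehicle ran from -0.16 to 0.92 and for I-BET151 against healthy from -0.31 to 0.80, lowest without I-BET151 mouse 3. Gm15441 ran from -1.60 to -1.11, 1.67 to 2.14 and 0.34 to 0.81.

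Replicate numbers did not pair the mice. Same-numbered mice of different groups correlated at a mean of -0.093 in their deviations (12 pairs, other pairs 0.031), and 0 of 12 mice correlated best with their own number. A replicate block gave 742, 10 and 1573 genes called, and 6, 0 and 12 list genes. With disease Pkm (adjusted p = 0.0701, edgeR) and Ldha (adjusted p = 0.107, edgeR) and for I-BET151 against vehicle Elovl6 (adjusted p = 0.122, edgeR) and Ppargc1a (adjusted p = 0.173, edgeR) no longer passed, and the Gm15441 calls were lost. Depth did not limit the 6 genes, each with at least 112 counts in every mouse.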
